A study of Mus musculus with 28 samples.

Results

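The genes described are 10 components of the machinery that writes, reads and maintains trimethylation of histone H3 lysine 9 (H3K9me3): Setdb1, Trim28, Suv39h2, Ehmt1, Ehmt2, Cbx1, Cbx3, Cbx5, Atf7ip and Morc3. They were chosen by name, and all 10 were found among the 22367 protein-coding genes of the GENCODE vM1 annotation on the placed chromosomes of the mm9 build. For each gene, the peaks of 4 chromatin immunoprecipitation sequencing (ChIP-seq) targets were recorded over its body plus 10 kb on each side. The question was how the promoters of these genes were marked in mouse embryonic stem cells (mESCs) with and without Spen, an RNA-binding repressor, and whether H3K9me3 or Oct4 lay on or beside them.

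The cells were HATX mESCs, a haploid line of mixed genomic background with a doxycycline-inducible Xist transgene, grown with serum and LIF. One group was WT (HATX WT) and the other carried a deletion of Spen (Spen KO clone 2), which the study describes both as full and as covering most of the gene. Both genotypes carry the Xist transgene (the labels do not say whether doxycycline was added for these libraries), and the Spen KO group is a single clone, so an effect of the deletion and a property of that clone cannot be told apart. Antibodies were directed against H3K4me3, H3K27Ac, H3K9me3 and Oct4, with 2 libraries for each antibody and genotype, and the libraries are technical replicates by the study's description. The histone marks gave 1 list per genotype, whereas Oct4 gave 1 list per library.

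H3K9me3 is deposited by a few enzyme systems that divide the genome between them. Setdb1 is brought to retroviral elements by Trim28 (also named Kap1), itself recruited by KRAB zinc finger proteins, while the Suv39h enzymes work mainly at pericentromeric and other broad heterochromatin. Ehmt1 and Ehmt2 (GLP and G9a) form a pair that mainly places the mono- and dimethyl forms of the mark, the Cbx proteins (HP1β, HP1γ and HP1α) bind methylated lysine 9, and Atf7ip and Morc3 act with Setdb1 or downstream of it. In mESCs this machinery is known for keeping endogenous retroviruses silent.

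The H3K4me3 lists held 34823 WT and 31091 Spen KO peaks, the H3K27Ac lists 13922 and 11932, the H3K9me3 lists 53745 and 70268 domains, and the 4 Oct4 lists between 1806 and 4111 peaks. The H3K9me3 domains covered 394 Mb in WT and 371 Mb in Spen KO, with median widths of 5400 and 3800 bp. Depth per library is unknown, since the lists hold no read counts. Over the targeted gene, Spen, H3K4me3 covered 8968 bp in WT (4 peaks) and 24022 bp in the list labelled Spen KO (6 peaks), and H3K27Ac had 0 and 1 peaks. The Spen KO H3K4me3 peaks lay between 0.06 and 21.36 kb and between 59.63 and 66.08 kb from the TSS of this 70.7 kb gene. No H3K4me3 peak of either genotype lay between 21.36 and 58.93 kb, where a WT peak began. The sources used here do not say where the deletion lies, so the lists neither show it nor check the label. An H3K27Ac promoter peak was present in both genotypes at 7 of 8 embryonic stem cell markers, Pou5f1, Nanog and Sox2 among them and Esrrb being the exception. None of the 5 fibroblast, 3 trophoblast, 4 primitive endoderm or 2 neural markers found had one in either genotype.

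The promoters of 5 of the genes are printed first, as 250 bases before to 50 bases after the transcription start site (TSS), read 5′ to 3′ on the strand of the gene from the mm9 sequence. Atf7ip and Morc3 are shown because an Oct4 peak was listed over the promoter in 1 library each, Atf7ip and Ehmt1 because H3K27Ac was listed at the promoter in only 1 genotype, and Trim28 and Cbx3 because their H3K4me3 peaks were the widest of the 10, in WT and Spen KO respectively. Capitals mark matches to the motifs GGGCGG (GC box), CCAAT (bound by NF-Y), CCGGAAG (an ETS factor motif), TGACGT (a CRE core), CACGTG (E-box), AAGATGGCG (YY1) and ATGCAAAT (the octamer of Oct4 and its relatives), all searched on both strands.
Atf7ip, chr6:136467122-136467421, plus strand: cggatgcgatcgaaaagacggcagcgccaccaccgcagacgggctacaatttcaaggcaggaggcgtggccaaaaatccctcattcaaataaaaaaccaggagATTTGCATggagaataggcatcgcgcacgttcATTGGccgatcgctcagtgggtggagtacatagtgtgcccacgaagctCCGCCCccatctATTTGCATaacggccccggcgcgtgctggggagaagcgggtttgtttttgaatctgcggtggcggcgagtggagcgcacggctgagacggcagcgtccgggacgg
Morc3, chr16:93832116-93832415, plus strand: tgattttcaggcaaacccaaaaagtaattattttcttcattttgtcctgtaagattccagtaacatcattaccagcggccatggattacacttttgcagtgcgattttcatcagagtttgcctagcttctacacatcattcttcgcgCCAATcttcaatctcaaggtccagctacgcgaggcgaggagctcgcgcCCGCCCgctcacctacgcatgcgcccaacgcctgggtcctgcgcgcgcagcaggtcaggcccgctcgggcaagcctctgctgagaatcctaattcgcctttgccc
Ehmt1, chr2:24775080-24775379, minus strand: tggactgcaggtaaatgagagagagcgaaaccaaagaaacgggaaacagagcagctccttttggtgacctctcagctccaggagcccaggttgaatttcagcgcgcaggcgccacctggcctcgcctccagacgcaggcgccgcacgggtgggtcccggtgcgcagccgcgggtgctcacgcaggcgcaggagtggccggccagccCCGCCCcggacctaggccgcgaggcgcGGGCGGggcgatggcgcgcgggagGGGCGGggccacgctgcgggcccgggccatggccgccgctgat
Trim28, chr7:13609251-13609550, plus strand: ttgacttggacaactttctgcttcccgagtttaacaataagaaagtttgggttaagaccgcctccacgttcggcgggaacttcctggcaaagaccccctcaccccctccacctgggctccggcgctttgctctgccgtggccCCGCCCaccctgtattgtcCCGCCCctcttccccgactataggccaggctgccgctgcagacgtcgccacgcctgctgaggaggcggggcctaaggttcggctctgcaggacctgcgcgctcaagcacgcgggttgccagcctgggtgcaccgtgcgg
Cbx3, chr6:51420109-51420408, plus strand: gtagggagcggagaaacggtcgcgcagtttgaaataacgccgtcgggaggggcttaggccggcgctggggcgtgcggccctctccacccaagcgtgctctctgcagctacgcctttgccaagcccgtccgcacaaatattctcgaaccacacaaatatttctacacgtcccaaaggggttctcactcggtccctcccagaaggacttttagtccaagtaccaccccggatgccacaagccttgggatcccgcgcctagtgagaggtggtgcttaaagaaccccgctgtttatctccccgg

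The Atf7ip window was the only one of the 10 with an octamer match. It held 2, both on the minus strand and therefore read as ATTTGCAT above, starting at -147 and -55 bp, and 1.73% of all promoter windows held at least 1. A GC box was found in 9 of 10 windows, all except Cbx3, against 43.4% of all promoters. CCAAT was found in 4 windows (Setdb1, Cbx5, Atf7ip and Morc3; 37.9% of all promoters). The E-box was found in 2 (Ehmt2 and Cbx5; 7.78%), CCGGAAG in Setdb1 alone (10.8%), TGACGT in Suv39h2 alone (8.56%) and the YY1 motif in 0 (1.84%). A pair of the TGACGT matches in Suv39h2 overlapped each other. The windows had a median GC content of 60.0% and a median ratio of observed over expected CpG of 0.91, against 55.0% and 0.534 over all promoters. The lowest CpG ratio was 0.703, at Setdb1, and the highest was 1.14, at Atf7ip.

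All 10 promoters carried H3K4me3, the mark of active or poised promoters, in both genotypes. A promoter peak was one that touched the window of 1000 bp on each side of the TSS, and 63.1% of all genes had one in WT and 61.5% in Spen KO. The median summed width over the 10 genes was 4417 bp in WT against 3690 bp in Spen KO, where all promoters with a peak had medians of 2786 and 2172 bp. H3K27Ac, the mark of active promoters and enhancers, was listed at 9 of the 10 promoters in WT and 9 in Spen KO, with 8 in both, against 18.2% and 19.7% of all genes. Its median width was 2366 bp in WT against 2075 bp in Spen KO, where all promoters with a peak had medians of 1345 and 1143 bp. Each genotype had 1 list, so these shares and widths have no replicate test.

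**Figure D1:**
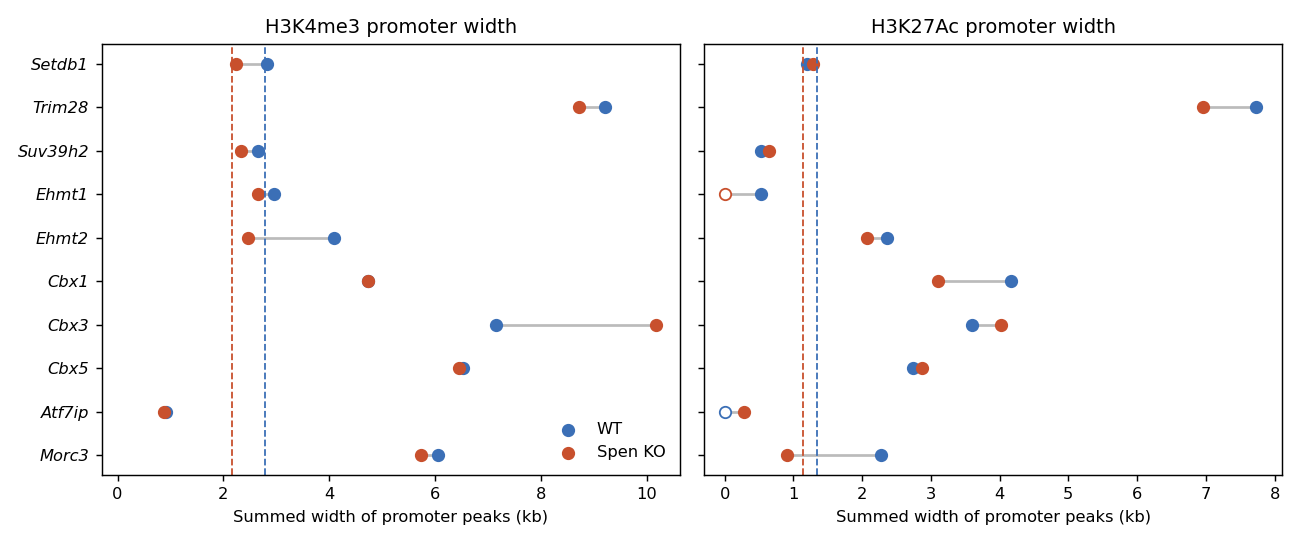
Summed width (kb, horizontal axis) of the H3K4me3 (left) and H3K27Ac (right) promoter peaks of each gene in WT (blue) and Spen KO (orange), with open circles for no peak and dashed lines for the median of all promoters with a peak in that genotype. H3K4me3 was widest at Trim28 in WT (9208 bp) and Cbx3 in Spen KO (10168 bp), and Atf7ip lay far below the median in both.

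Among the enzymes, Setdb1 (ENSMUSG00000015697.8, chr3:95127447-95161124, minus strand), which trimethylates lysine 9 in euchromatin, had an H3K4me3 promoter width of 2830 bp in WT against 2247 bp in Spen KO. These were the 80.4th and 78.5th percentiles of all peaks in the lists, at ranks 6814 and 6674, but the 51.4th and 52.7th percentiles of all H3K4me3 promoters. Its H3K27Ac widths were 1191 and 1280 bp. Suv39h2 (ENSMUSG00000026646.10, chr2:3373087-3392303, minus strand), the Suv39h enzyme that is autosomal in the mouse, had 2651 and 2329 bp of H3K4me3 and a narrow H3K27Ac peak of 529 bp in WT against 652 bp in Spen KO, at the 12.2th and 25.7th percentiles of their lists.

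The GLP gene Ehmt1 (ENSMUSG00000036893.9, chr2:24646289-24775129, minus strand) had 2963 bp of H3K4me3 in WT in 1 peak and 2651 bp in Spen KO in 2 peaks. Its H3K27Ac promoter peak was listed in WT alone, with a width of 535 bp and a score at the 28.1th percentile of the list. Its partner Ehmt2, encoding G9a (ENSMUSG00000013787.9, chr17:35035414-35050997, plus strand), had an H3K4me3 width of 4093 bp in WT against 2459 bp in Spen KO, and a log2 ratio of -0.74. It was the only one of the 10 past a 1.5-fold difference in either direction. H3K27Ac at Ehmt2 was 2366 bp in WT against 2075 bp in Spen KO. The TSS of C2, a complement gene, lies 17 bp from that of Ehmt2, so the promoter peaks belong to both genes.

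The scaffold gene Trim28 (ENSMUSG00000005566.7, chr7:13609501-13616384, plus strand), whose product links KRAB zinc fingers to Setdb1, had the widest H3K4me3 promoter of the 10 in WT, at 9208 bp (rank 67 of 34823 peaks), and 8729 bp in Spen KO, summed over 2 peaks. The wider of the latter spanned -0.78 to 6.76 kb and reached nearly to the end of the 6.88 kb gene. H3K27Ac at this promoter covered 7728 bp in WT (rank 148) and 6962 bp in Spen KO (rank 163), also the widest of the 10 in both lists.

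The 3 HP1 genes, whose products read the mark, all had H3K4me3 and H3K27Ac promoter widths above the median of all promoters. For Cbx1 (HP1β, ENSMUSG00000018666.7, chr11:96650441-96669954, plus strand), the H3K4me3 width was 4741 bp in WT against 4730 bp in Spen KO, and H3K27Ac covered 4167 and 3105 bp. For Cbx3 (HP1γ, ENSMUSG00000029836.9, chr6:51420359-51433703, plus strand), H3K4me3 covered 7160 bp in WT (rank 256) and 10168 bp in Spen KO (rank 26), and H3K27Ac covered 3592 and 4018 bp. In WT a separate H3K4me3 peak of 2100 bp lay at 1.48 to 3.58 kb, inside the stretch that the single Spen KO peak covered. For Cbx5 (HP1α, ENSMUSG00000009575.8, chr15:103021975-103070247, minus strand), the H3K4me3 widths were 6529 and 6446 bp and the H3K27Ac widths 2741 and 2875 bp. The promoters of Cbx3 and Cbx5 are shared with Hnrnpa2b1 and Hnrnpa1, genes of abundant RNA-binding proteins, whose TSSs lie 466 and 698 bp away.

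The Setdb1 partner gene Atf7ip (ENSMUSG00000030213.6, chr6:136467372-136555898, plus strand), whose product keeps Setdb1 in the nucleus and protects it, differed from the other 9 in having the narrowest peaks. Its H3K4me3 peak was 909 bp wide in WT and 879 bp in Spen KO, at the 3.39th and 5.06th percentiles of all H3K4me3 promoters. H3K27Ac was listed at its promoter in Spen KO alone, as a peak of 283 bp with a score at the 3.68th percentile of the list. A second annotated record of Atf7ip (ENSMUSG00000053935.6) starts 451 bp after the end of the first and was not counted. Morc3 (ENSMUSG00000039456.6, chr16:93832366-93876317, plus strand), an ATPase gene involved in retroviral silencing, had an H3K4me3 width of 6063 bp in WT against 5734 bp in Spen KO. H3K27Ac at Morc3 was 2275 bp in WT over 2 peaks and 901 bp in Spen KO in 1 peak, a log2 ratio of -1.34. The WT-only peak of that pair lay at -1.98 to -0.74 kb.

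Apart from Ehmt2 and Cbx3, the log2 ratios of H3K4me3 width, Spen KO over WT, lay between -0.33 (Setdb1) and -0.00 (Cbx1). Each genotype had 1 list, so the ratios have no test. The median log2 width ratio was -0.08 for the 10 genes and -0.30 for all 13640 promoters with a peak in both lists. Ratios below 0 were found at 9 of the 10 genes and at 12109 of the 13640 promoters. Past 1.5-fold, 1 gene (Ehmt2) was narrower and 0 wider, against 22.5% narrower and 0.799% wider over all promoters. Cbx3, at a log2 ratio of 0.51, lay just inside that limit and at the 98.9th percentile of all ratios. Its ratio was 0.25 with peaks within 1000 bp merged and 0.13 with a window of 2500 bp on each side of the TSS. For H3K27Ac, the median was -0.04 over the 8 genes with a peak in both lists and -0.06 over all 3471 promoters. Of the 8, Morc3 was narrower past 1.5-fold and 0 were wider, against 17.6% and 10.9% over all promoters. When peaks within 1000 bp of each other were merged, the H3K4me3 median of the 10 genes was -0.22, Ehmt2 was no longer past the limit (-0.26) and Trim28 (-1.01) and Cbx1 (-0.81) were. For H3K27Ac, merging made 3 genes narrower past the limit, Trim28 (-1.60), Cbx1 (-1.62) and Morc3 (-3.25). With the widest promoter peak alone, Ehmt2 was past it (-0.90) and Morc3 was not (-0.45). With peaks that touched the TSS itself 0 genes were past it, but a ratio existed only for Trim28, Cbx1, Cbx3 and Cbx5. Setdb1, Suv39h2, Ehmt2 and Morc3 had no such peak in at least 1 genotype. These width alternatives were run on the 10 genes alone. No share or median over all promoters stands beside them, so a shift of all promoters cannot be told from one of these genes.

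**Figure D2:**
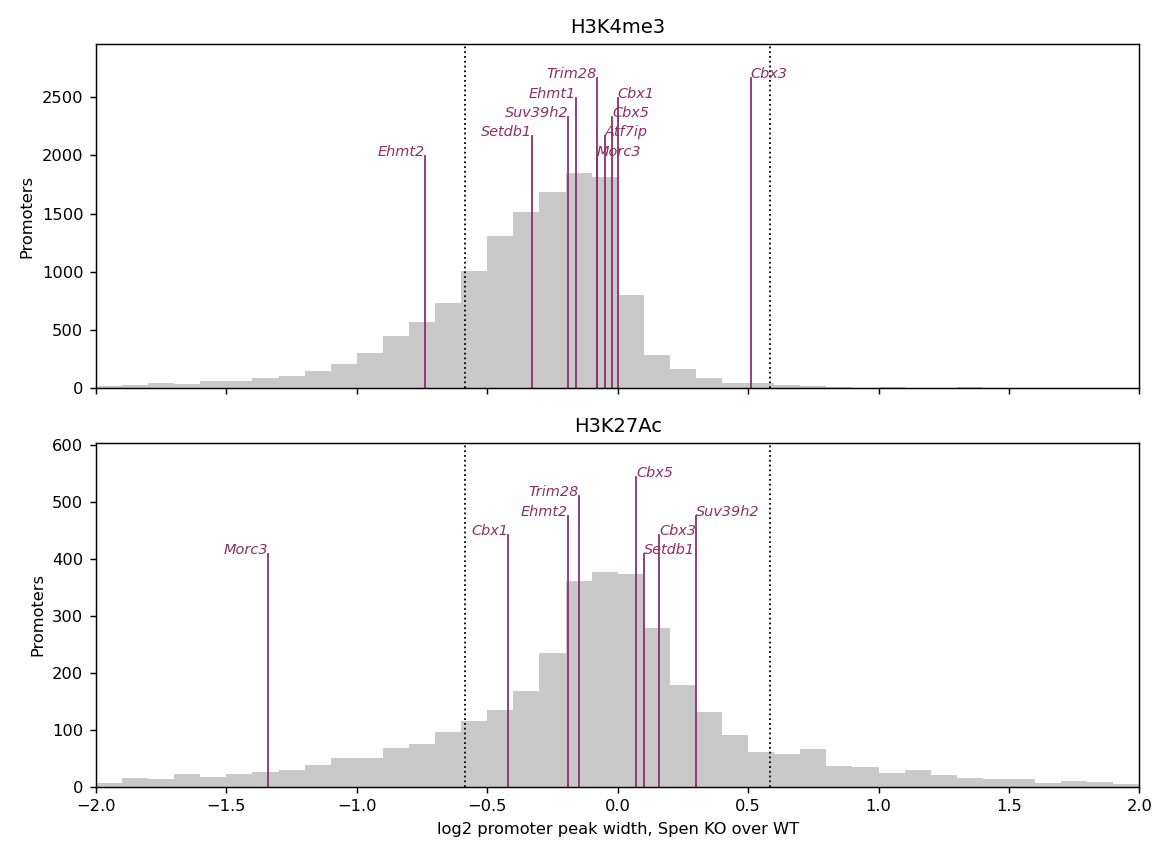
Number of promoters (grey bars, vertical axis) by log2 ratio of promoter peak width, Spen KO over WT (horizontal axis, bins of 0.1), for H3K4me3 (top) and H3K27Ac (bottom), with vertical lines for the genes and dotted lines at 1.5-fold. For H3K4me3 only Ehmt2 (-0.74) lay outside the dotted lines, and for H3K27Ac only Morc3 (-1.34).

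The lists also hold a score for each of the 2 libraries behind a peak, without library names, so the libraries are given here in the order listed. For Trim28 the H3K4me3 scores of the strongest promoter peak were 29.9 and 41.1 in WT against 59.4 and 72.0 in Spen KO. Both Spen KO libraries lay above both WT libraries. After centring each library on its median over all promoters, the difference was 1.23 ± 0.387 on the log2 scale (SE, 2 libraries against 2), with an unadjusted p of 0.00444 and a limma adjusted p of 0.482. For Ehmt2 the scores were 42.1 and 34.9 in WT against 50.2 and 48.9 in Spen KO, again without overlap, with a difference of 0.70 ± 0.382 and a limma adjusted p of 0.67.

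Suv39h2 and Cbx5 had the opposite order. The Suv39h2 H3K4me3 scores were 44.9 and 44.5 in WT against 25.8 and 16.1 in Spen KO (log2 difference -0.80 ± 0.372, limma adjusted p 0.646). The Cbx5 scores were 60.2 and 67.6 in WT against 41.9 and 30.2 in Spen KO (-0.51 ± 0.359, limma adjusted p 0.751). Both Spen KO libraries were thus lower at 2 of the 10 genes, against 36.8% of all promoters, and higher at 2, Trim28 and Ehmt2, against 5.56%. In the other 6 genes the libraries of the genotypes overlapped. Setdb1 had scores of 60.3 and 32.3 in WT against 70.9 and 50.3 in Spen KO. Spen KO scores differed most between libraries at Cbx3, at 66.1 and 19.7, against 44.4 and 58.3 in WT. Atf7ip had the lowest WT scores of the 10, at 22.6 and 22.4, with 24.9 and 14.2 in Spen KO.

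No H3K4me3 difference among the 10 genes passed a limma adjusted p of 0.05, and 2 of the 10 (Trim28 and Suv39h2) had an unadjusted p under 0.05. Over all 13640 promoters, 0.00733% (1 promoter) passed higher in Spen KO and 0% lower, while 1044 had an unadjusted p under 0.05. The median log2 difference was -0.01 for the 10 genes and 0.02 over all promoters. The listed Spen KO libraries were not alike, with median log2 scores over promoters of 5.36 and 4.78, against 5.39 and 5.41 in WT. The part of this gap in the values of single genes was not tested.

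The H3K27Ac scores of Cbx3 and Morc3 were the highest of the 10 genes by the mean of the libraries in both genotypes. For Cbx3 they were 51.4 and 48.3 in WT against 65.4 and 42.9 in Spen KO. For Morc3 they were 35.0 and 30.8 in WT against 35.7 and 44.0 in Spen KO, and for Trim28 they were 37.2 and 21.3 in WT against 24.1 and 42.0 in Spen KO. Morc3 and Cbx5 (24.0 and 23.4 in WT, 38.5 and 31.2 in Spen KO) had both Spen KO libraries above both WT libraries, and 37.4% of all promoters did so. None of the 8 genes tested had both Spen KO libraries below, against 8.01% of all promoters. Once the libraries were centred, the log2 differences of the 8 genes lay between -0.53 (Suv39h2) and 0.26 (Cbx5), with SEs of 0.322 to 0.333. None of the 8 passed the limma test, the smallest adjusted p being 0.511, and 0 had an unadjusted p under 0.05, while 0.288% of all 3471 promoters passed higher and 0.691% lower. The genes listed in 1 genotype had scores in the lower range of the 10, 13.6 and 13.4 for Ehmt1 in WT and 13.2 and 10.4 for Atf7ip in Spen KO.

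**Figure D3:**
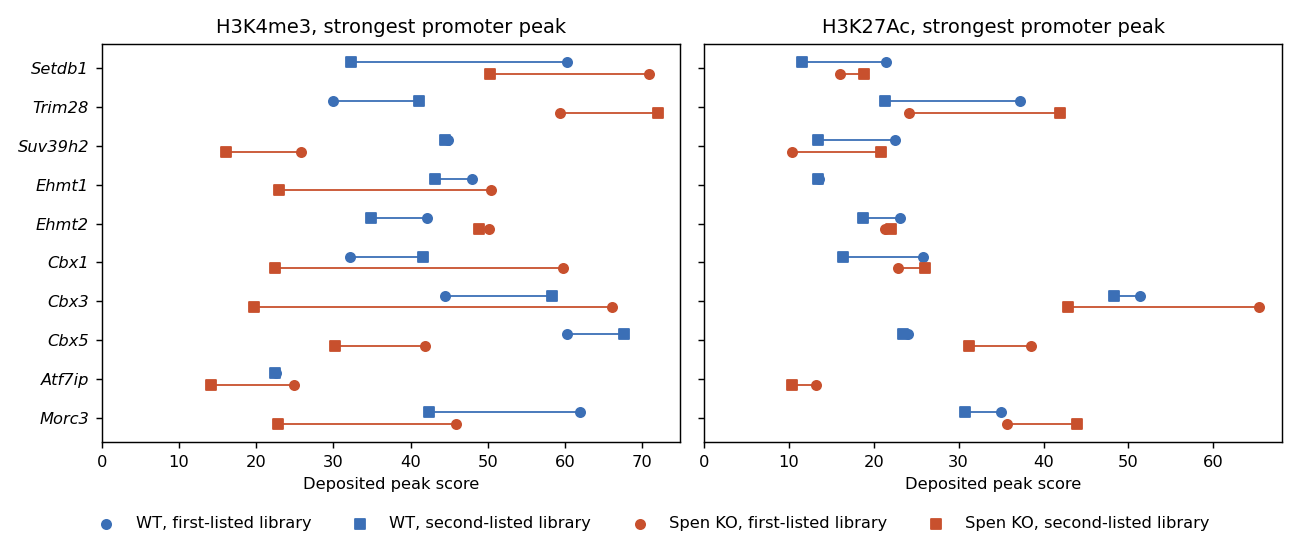
Deposited score (horizontal axis) of the strongest H3K4me3 (left) and H3K27Ac (right) promoter peak of each gene, with 1 point per library, circles for the first-listed and squares for the second-listed library of WT (blue) and Spen KO (orange). Trim28 and Ehmt2 are the genes whose Spen KO points both lie to the right of the WT points for H3K4me3, and the Spen KO points of Cbx3 span 19.7 to 66.1.

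H3K9me3 itself was listed within the gene body plus 10 kb of 6 of the 10 genes in WT and of the same 6 in Spen KO (Setdb1, Suv39h2, Ehmt1, Cbx3, Atf7ip and Morc3). Over all genes the shares were 46.8% and 47.0%, and the 10 genes are longer than most, with a median length of 26.6 kb against 15.4 kb. A domain over the gene body was listed for 2 genes in WT, Atf7ip and Morc3, and for 1 in Spen KO, Atf7ip. No domain lay within this distance of Trim28, Ehmt2, Cbx1 or Cbx5. The nearest to these genes was 32816 bp from the Trim28 gene body in WT, and at Cbx5 the gap was 170953 bp.

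Morc3 was the gene where the lists differed most. In WT a domain of 4400 bp lay at 16.64 to 21.03 kb (chr16:93849001-93853400), over exons 6 to 7 of the 17 exons of its longest coding transcript, and a shorter one of 1400 bp lay upstream at -4.37 to -2.97 kb. Neither had any overlap in the Spen KO list, in which the nearest domain was 7165 bp from the TSS. Another domain upstream, at -10.96 to -7.17 kb in WT against -10.56 to -7.17 kb in Spen KO, was shared. The intragenic domain had a score of 150.0, at the 49.1th percentile of the WT list, and 11.8% of all WT domains had no overlap in Spen KO. Bases under H3K9me3 in the window of Morc3 came to 8635 in WT and 2835 in Spen KO. The lists are the only values behind this difference, since 1 list per genotype allows no test.

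**Figure D4:**
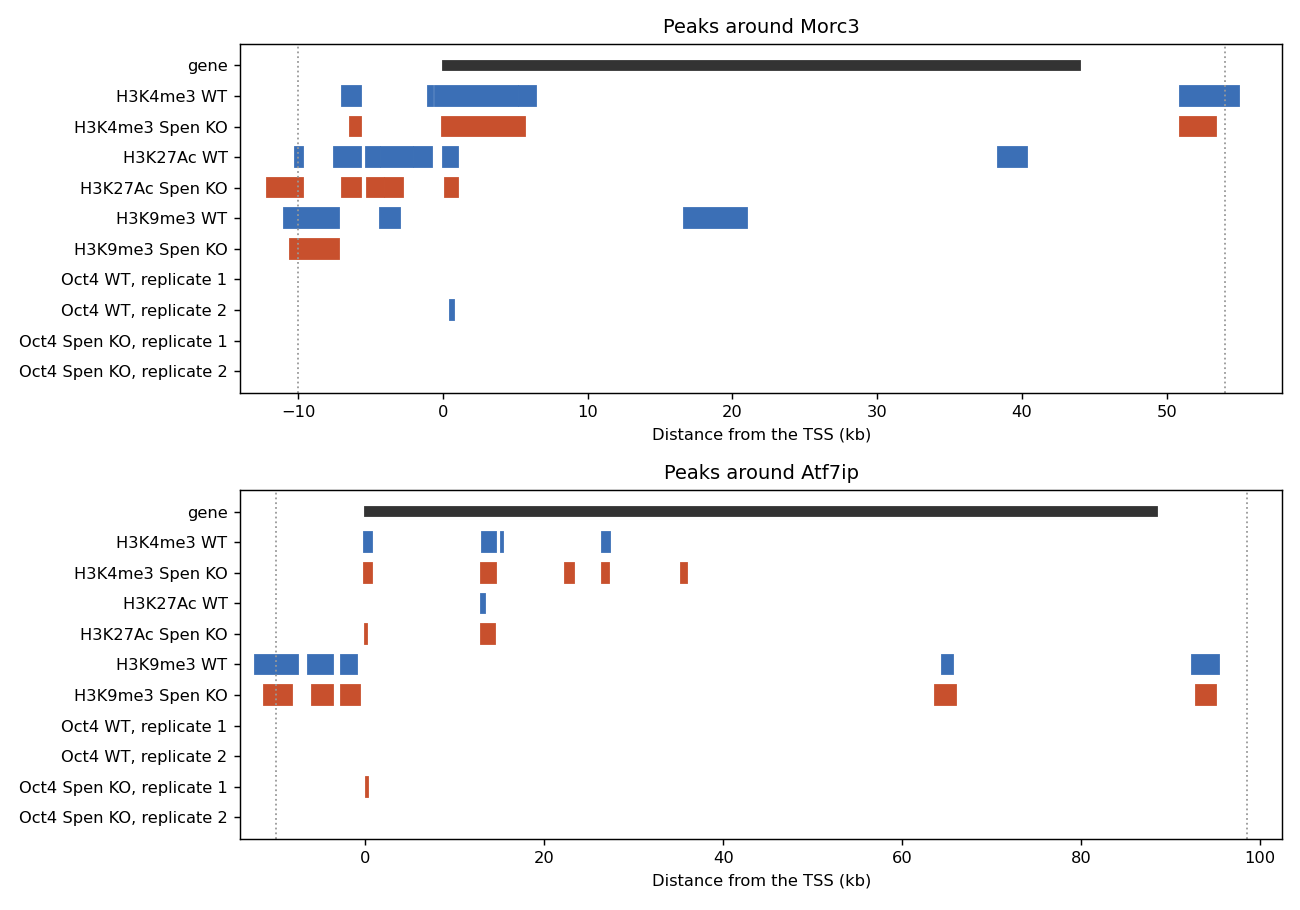
Listed peaks (bars) around Morc3 (top) and Atf7ip (bottom) by distance from the TSS in kb (horizontal axis), 1 row per list, WT in blue and Spen KO in orange, with the gene as a black bar and dotted lines 10 kb beyond its ends. Bars narrower than 0.25 kb are drawn at that width, and the H3K9me3 domain inside Morc3 and the shorter one upstream appear in the WT row alone.

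Atf7ip lay in a run of H3K9me3 that was shared by the genotypes. Upstream, 3 domains were listed in each genotype. The nearest ended at -972 bp in WT against -572 bp in Spen KO, so that it reached the edge of the promoter window, as at 8.07% of all genes in WT and 7.94% in Spen KO. Its score was 84.4 in WT and 180.0 in Spen KO, at the 16.8th and 54.2th percentiles of their lists. A domain inside intron 8 was 1200 bp wide in WT (64.43 to 65.63 kb) and 2400 bp in Spen KO (63.63 to 66.03 kb), and another beyond the 3′ end lay over Plbd1. Within the window the mark covered 11229 bp in WT against 11029 bp in Spen KO, the widest cover of the 10 genes in both.

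In the remaining 4 genes the mark lay in the flanks alone and in both genotypes. At Suv39h2 a domain of 14600 bp in WT against 12000 bp in Spen KO lay upstream over the neighbouring gene Hspa14, and its near end was 4097 and 6497 bp from the TSS. At Setdb1 a domain of 4800 bp in WT against 4600 bp in Spen KO lay 7476 and 7276 bp upstream. At Ehmt1 and Cbx3 it lay beyond the 3′ end, 2488 and 1497 bp from the gene body in WT, and 1488 and 1897 bp in Spen KO.

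Most of these domains lay in sequence that is unique in the genome. The share of 31-base words with at least 10 copies in mm9 had a median of 8.46% over the 12 WT domains and 11.4% over the 10 Spen KO domains near the genes, and a median of 0% over the 10 promoter windows. The domain upstream of Setdb1 was the exception at 86.5% in WT and 87.0% in Spen KO, with a median of 609 copies per word in WT. Which alignments the lists were made from bears on a domain in such sequence and was not tested. At Suv39h2 the share was 37.5% and 43.0%, in the Atf7ip intron 47.5% and 32.3%, and in the WT domain inside Morc3 it was 7.05%, with 87.8% of words present once.

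Oct4, a transcription factor of pluripotent cells, was listed within the gene body plus 10 kb of 2 and 3 genes in replicates 1 and 2 of WT, and of 5 and 4 genes in those of Spen KO. The shares of all genes were 10.4%, 10.9%, 7.95% and 8.79% in the same order. Each listing was a single peak, and the sites fell at 6 genes. Suv39h2, Ehmt2, Cbx3 and Cbx5 had none in any library. The sites listed in at least 2 libraries are printed as 150 bases centred on the median summit, on the strand of the gene, with capitals for the bases inside the peak of every library that listed the site.
Trim28 site, chr7:13599715-13599864, plus strand: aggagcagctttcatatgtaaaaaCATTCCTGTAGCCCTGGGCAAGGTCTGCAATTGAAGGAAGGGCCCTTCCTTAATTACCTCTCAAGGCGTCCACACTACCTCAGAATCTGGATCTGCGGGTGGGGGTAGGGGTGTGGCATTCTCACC
Ehmt1 site, chr2:24767798-24767947, minus strand: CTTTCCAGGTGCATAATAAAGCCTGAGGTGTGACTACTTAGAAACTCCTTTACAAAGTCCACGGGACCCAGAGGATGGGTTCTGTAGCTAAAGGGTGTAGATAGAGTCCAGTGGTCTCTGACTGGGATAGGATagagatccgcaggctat
Cbx1 site, chr11:96641569-96641718, plus strand: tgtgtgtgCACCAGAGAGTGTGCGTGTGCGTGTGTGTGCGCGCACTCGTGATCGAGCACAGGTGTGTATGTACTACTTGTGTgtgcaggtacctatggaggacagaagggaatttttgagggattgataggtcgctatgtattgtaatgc
Setdb1 site, chr3:95119371-95119520, minus strand: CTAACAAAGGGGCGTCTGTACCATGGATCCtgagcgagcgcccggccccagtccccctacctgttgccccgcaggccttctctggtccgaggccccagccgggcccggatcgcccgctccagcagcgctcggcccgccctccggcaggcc

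All 4 libraries had a peak upstream of Trim28 and inside Ehmt1. The site upstream of Trim28 lay at -9.7 kb in intergenic sequence, where the nearest TSS was that of Zbtb45, 4386 to 4568 bp from the peaks. The Trim28 site had a fold enrichment over input of 7.12 and 10.7 in WT against 9.04 and 12.5 in Spen KO. Its centre was 11 bp from an H3K27Ac peak in WT and inside one in Spen KO. The Ehmt1 site lay at 7.3 kb, in intron 1 of its longest coding transcript, with folds of 8.27 and 5.41 in WT against 8.72 and 9.33 in Spen KO. The nearest H3K27Ac peak was 6672 bp away in WT and 37383 bp in Spen KO. At Trim28 the genotypes overlapped, whereas at Ehmt1 both Spen KO folds lay above both WT folds. The share of all Oct4 sites with that order was not computed, and the folds were not tested.

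Sites near Cbx1 and Setdb1 were listed in both Spen KO libraries and in neither WT library. The share of all Oct4 sites listed in this way was not computed. With lists cut to equal length, the difference in peaks was 0.0 near Setdb1 and 1.0 near Cbx1. The Cbx1 site, at -8.8 kb in intergenic sequence, had folds of 6.68 and 6.57 and lay in an H3K27Ac peak in both genotypes. Its nearest TSS was that of Snx11, 2645 bp from the peak of replicate 1 and 2704 bp from that of replicate 2. The Setdb1 site had folds of 5.6 and 4.73. It lay 41.7 kb from the TSS, past the 3′ end of Setdb1 and inside an intron of Lass2, in H3K4me3 and H3K27Ac peaks of both genotypes. The nearest TSS was that of another gene, Gm10691, at 304 bp from the peak of replicate 1 and 452 bp from that of replicate 2. For each of these genes the difference was 1 peak (exact two-sided permutation test over the 4 libraries, p = 0.333), which is the smallest p that this design allows. Peaks over a promoter were listed in 1 library each, at Atf7ip in Spen KO replicate 1 (fold 5.61, 66 to 185 bp after the TSS) and at Morc3 in WT replicate 2 (fold 5.7, 529 to 648 bp after the TSS). Both were 120 bp wide, and the Atf7ip peak did not reach the octamer matches upstream of the TSS.

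None of the 4 printed sites held ATGCAAAT, its first 7 letters or the Sox motif ATTGTT on either strand. Windows of the same length held ATGCAAAT around 2.55% and 3.95% of the summits in the WT lists and 3.26% and 4.71% in the Spen KO lists. Those windows were centred on each peak's own summit, whereas the printed sites were centred on the median of summits 102 to 166 bp apart. The Setdb1 window held neither of its summits, and the Trim28 window left out that of Spen KO replicate 1, so the comparison is not like for like. The first 7 letters were held by 4.72% and 7.75% in WT and by 6.59% and 10.2% in Spen KO, and the Sox motif by 4.0% and 9.51%, then 8.43% and 12.8%.

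**Figure D5:**
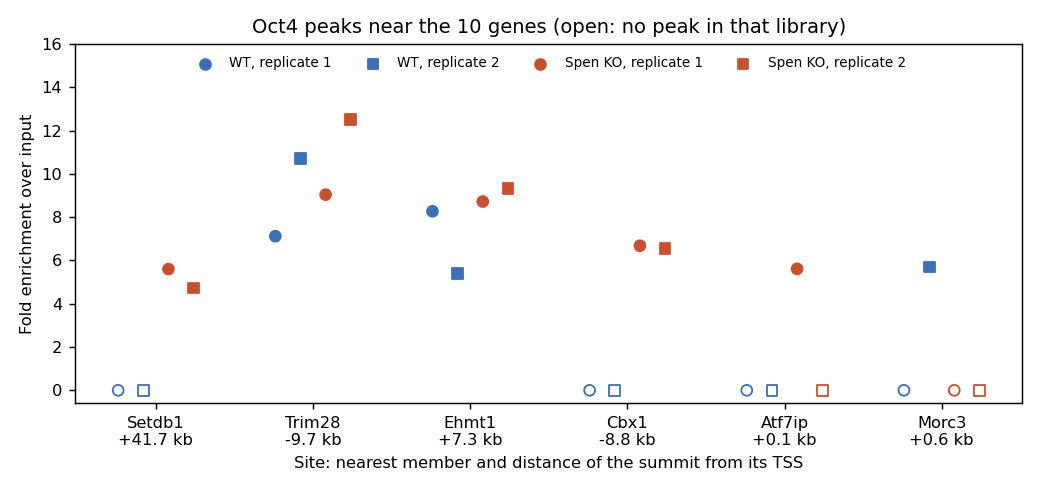
Oct4 fold enrichment over input (vertical axis) at the 6 sites near the genes, by library, WT in blue and Spen KO in orange, circles for replicate 1 and squares for replicate 2. Open symbols at the bottom stand for no listed peak, and Trim28 and Ehmt1 have a filled symbol in all 4 libraries.

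The wider pathway was followed in 52 other genes of H3K9 methylation, reading, removal and silencing. Of these, 48 had an H3K4me3 promoter peak in WT and 46 in Spen KO, against 63.1% and 61.5% of all genes. An H3K27Ac promoter peak was listed at 26 and 29, against 18.2% and 19.7% of all genes. By role, H3K27Ac was listed in both genotypes for 3 of the 4 HUSH complex genes but for 0 WT and 2 Spen KO promoters of the 6 other methyltransferase genes. The genes without H3K4me3 in either list were Mecom, Cdyl, Morc1 and Kdm4c, and Zfp57 and Morc2b had it in WT alone. The widest WT promoter of the list was that of Jmjd1c, a relative of the lysine 9 demethylases, at 13474 bp against 4826 bp in Spen KO.

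H3K9me3 over the promoter was listed for 2 of the 52 genes in WT and 1 in Spen KO, against 8.07% and 7.94% of all genes. In WT these were Zfp809, a KRAB zinc finger gene whose product recruits Trim28 to retroviral sequence, with a domain of 3600 bp, and Atf7ip2, with a domain of 17800 bp. In Spen KO the gene was Tasor, of the HUSH complex, with a domain of 4400 bp. At Zfp809 the H3K4me3 width was 1733 bp in WT against 4541 bp in Spen KO, and the H3K27Ac width 527 and 1750 bp, making it the 1 gene of the list wider past 1.5-fold in either mark. Over all promoters, 0.799% were wider past 1.5-fold for H3K4me3 and 10.9% for H3K27Ac. For H3K4me3, 4 of the 46 pathway genes with both peaks were narrower past 1.5-fold, against 22.5% of all promoters. These were Chaf1a, Chaf1b, Kdm4b and Jmjd1c, named after their values were seen. For H3K27Ac, 8 of the 23 pathway genes with both peaks were narrower past 1.5-fold, against 17.6% of all promoters. The median log2 ratio of the 23 was -0.25, against -0.06 over all promoters. The median log2 H3K4me3 width ratio over the 46 genes with both peaks was -0.14, between those of the 10 genes and of all promoters. No pathway gene passed the limma test of the scores, with smallest adjusted p values of 0.462 for H3K4me3 and 0.0858 for H3K27Ac. Within gene body plus 10 kb, H3K9me3 was listed at 22 of the 52 genes in WT and 25 in Spen KO, against 46.8% and 47.0% of all genes.

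The genes outside the pathway whose promoters were most like the median of the 10, by the mean difference of 4 width percentiles, were Dohh (0.73 percentile points), Sh2b1 (0.78) and Chchd5 (0.88). Dohh had H3K4me3 widths of 4535 bp in WT against 3263 bp in Spen KO and H3K27Ac widths of 2199 and 1382 bp.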

How the data were processed

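ChIP-seq peak lists of 16 ChIP libraries, with 12 inputs, were analysed. The authors aligned read pairs with Bowtie2 to mm9. Filters on unique alignment, pairing and duplication preceded peak calling by MACS2, with input as the control. Lists of H3K4me3 and H3K27Ac were filtered by the irreproducible discovery rate. The deposited score of these lists is given per library, and its MACS2 column is not given in the sources used here. For H3K9me3 the deposited score stands per domain of joined 200 bp windows, and how the libraries were combined is not given. For Oct4 the deposited fold enrichment, a ratio of ChIP over input, and the summit were used for each library. DESeq2, which the authors applied to read counts, was not used here, since no counts were analysed.

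Groups came from the labels. Genes and TSSs came from GENCODE vM1, and sequence from the matching NCBIM37 genome. Width was the sum of promoter peaks within 1000 bp of the TSS, and a ratio past 1.5-fold counted as a difference. Scores were tested on the log2 scale with limma 3.58.1 (trend, Benjamini-Hochberg over all promoters with a peak in both lists), a method tested on simulated data. The authors' filter removes peaks that differ between libraries, which understates the spread, and p-values measure the spread between technical replicates. Absence from a list can mean a signal just short of the calling limit. The genes, the pathway list and the tests were chosen with earlier results of these data known. All 10 genes are named. Pathway genes are named where H3K9me3 lay over the promoter, where H3K4me3 was absent from a list, or as the 2 widest in WT (1 gene is not reported here), with 3 others named for width after their values were seen, and 5 promoters were printed by the rule stated beside them. The 31-base words and the search of Oct4 sites were added after the lists were seen. Alternatives covered the promoter window, the flank, list length, score scaling and left-out libraries.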

Additional observations from a re-analysis of the deposited data

How the results depend on the processing

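Under all 6 alternatives tried for promoter presence, the count of the 10 genes with H3K4me3 or H3K27Ac stayed within 1.5 times the reported count. With the stronger 50% of each list, H3K4me3 fell from 10 to 9 in WT and 8 in Spen KO. H3K27Ac fell from 9 to 6 in WT and 7 in Spen KO at the TSS itself, and to 8 and 6 with the stronger 50%. The count with H3K9me3 fell with the gene body alone, to 2 in WT and 1 in Spen KO, and with the stronger 50% of each list, to 3 in both. With lists cut to equal length it was 6 in WT and 4 in Spen KO, so the match between the genotypes depended on list length. The median H3K4me3 width ratio of the 10 genes was -0.22 when peaks within 1000 bp were merged, and the median over all promoters was not computed for that setting. None of the 10 genes passed the limma threshold under any alternative, where the smallest adjusted p was 0.126 for H3K4me3 and 0.276 for H3K27Ac.

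Calls over all promoters moved more. For H3K4me3, promoters higher in Spen KO numbered 0 without centring, 0 with quantile normalization, 0 without the lowest 25%, and 0 to 2 when a library was left out, and promoters lower numbered 0 to 1. For H3K27Ac, those higher numbered 3 without centring, 5 with quantile normalization, 174 with scores summed over promoter peaks, 4 without the lowest 25% and 3 to 5 when a library was left out. Those lower numbered 0, 10, 237, 21 and 8 to 12 in the same order. The cause was not tested.

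Differences that missed the threshold changed sign at several genes. For H3K4me3, the sum over peaks gave 0.54 at Ehmt1, no centring gave -0.26 at Atf7ip, and leaving out a library gave -0.37 to 0.20 at Ehmt1, -0.08 to 0.75 at Cbx1, -0.75 to 0.42 at Cbx3 (0.02 without the second-listed WT library) and -0.04 to 0.19 at Atf7ip. For H3K27Ac, no centring gave 0.15 at Setdb1, 0.18 at Trim28, 0.06 at Ehmt2, 0.24 at Cbx1, 0.09 at Cbx3 and 0.27 at Morc3, and the sum over peaks gave 0.51 at Ehmt2. Leaving out a library gave -0.42 to 0.13 at Setdb1, -0.51 to 0.28 at Trim28, -0.20 to 0.11 at Cbx1, -0.52 to 0.11 at Cbx3 and -0.16 to 0.12 at Morc3. The H3K4me3 score directions at Trim28, Setdb1, Ehmt2, Suv39h2, Cbx5 and Morc3, and the H3K27Ac ones at Suv39h2 and Cbx5, held under the alternatives run, which were 8 for each except 7 for H3K27Ac at Suv39h2, a promoter that the filter on the lowest 25% removed.

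The difference in Oct4 peaks summed over the 10 genes, 2.0 more in Spen KO as reported, was 0.0 over gene bodies and 0.5 with 50 kb flanks, where Atf7ip turned to -0.5. It was 1.5 to 2.5 when a library was left out, and 1.5 with the stronger 50% of each list and with lists cut to equal length. Under both of these cuts the difference was 0.0 near Setdb1 and 1.0 near Cbx1. With the replicate number as a replicate block the summed difference was 2.0 by construction, and the p for Setdb1 and Cbx1 was 0.5, the smallest that this permutation allows. No paired analysis was possible for the histone scores because the listed libraries carry no numbers.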
